A study of Mus musculus with 51 samples.

Results

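Ventral prostates of AKT1 transgenic mice that had received RAD001 for 15 d were compared with glands that had received it for 48 h. The comparison was formed by title, from 6 arrays of the 15 d drug group and 4 of the 48 h drug group, 10 of the 51 arrays of the series and 10 of the 42 arrays in the table that holds both times. All 10 come from transgenic FVB mice aged 8 to 10 weeks on a standard diet, so that the transgene and the drug are common to both groups and only the length of treatment differs by label. For comparison, 5 arrays of transgenic placebo glands at 48 h and 7 at 15 d were used, together with 4 and 3 arrays of wild type FVB glands on placebo at the same times. The dose, the route, the promoter that drives the transgene and whether animals were pooled do not appear in these sources. The series text names the separation of pharmacodynamic from response markers as its purpose.

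RAD001, also called everolimus, binds FKBP12 and the complex inhibits mTOR complex 1, a kinase downstream of AKT that promotes translation, ribosome production, lipid synthesis and glycolysis. The ventral lobe is a secretory, androgen-dependent gland of luminal and basal epithelium in a stroma of smooth muscle, fibroblasts and vessels. Expression of active AKT1 in this lobe is known to give intraepithelial neoplasia that regresses when mTOR is inhibited.

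Each value is the log2 of the deposited intensity of a probe set, with values under 16 set to 16. Probe sets differ in brightness, so levels are compared only within a gene. The secretory genes of the lobe were bright in the 48 h glands, with a mean log2 intensity of 12.28 ± 0.29 for Pbsn, 13.17 ± 0.05 for Spink1 and 12.73 ± 0.15 for Msmb (SD, n = 4), and none of the markers of the seminal vesicle and other lobes passed the filter on dim probe sets. The 10 arrays had correlations of 0.7834 to 0.9699 with each other, and no pair was identical. On each array 13 to 109 of the 9627 features tested were listed at exactly 0, also in bright probe sets. In such genes the values are given per array, and no fold is given.

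The 6 arrays at 15 d fell into 2 sets. Replicates 1 and 2, called set A here, scored 0.0 and 7.3 on the principal component that carried 26.5% of the variance of the table. Replicates 3, 4, 6 and 7, called set B, scored 41.1 to 41.9, while the 48 h drug arrays scored −22.1 to −7.0. The 15 d placebo arrays divided likewise, with 2 arrays at −3.0 and 7.8 and 5 arrays between 36.3 and 88.3, and these are called the placebo sets A and B. The labels name no batch, so what the sets differ in is not known, and the division of the placebo arrays was read from the values themselves. The values of set A and set B are therefore given apart for the genes described most fully, and the counts of calls in each set beside the main gene lists.

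**Figure D1:**
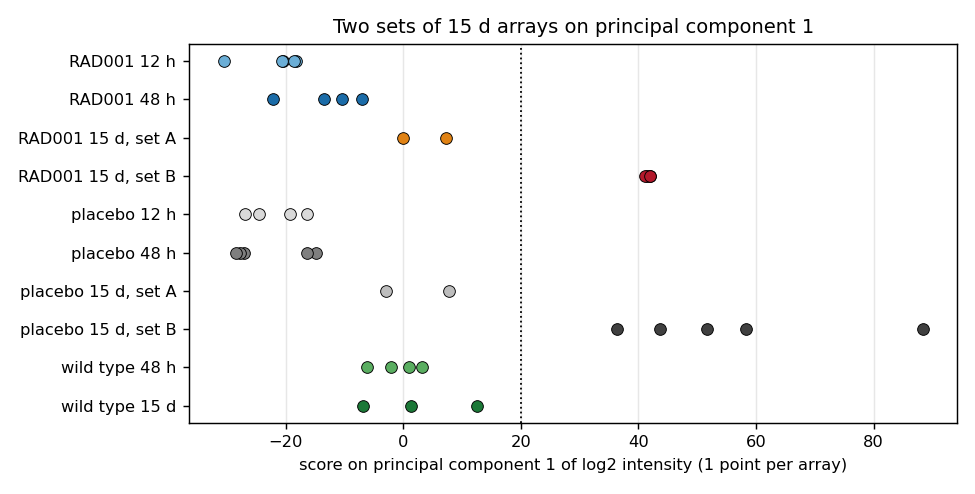
Score of each array on principal component 1 of log2 intensity (x axis, no unit), 1 point per array, by group (y axis). The dotted line at 20 separates set B from set A in both treatments at 15 d; RAD001 set B lies at 41.1 to 41.9 and RAD001 set A at 0.0 and 7.3.

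Over all 6 arrays, 2995 of 9627 features (31.1%) differed between 15 d and 48 h at an adjusted p under 0.05 in limma, 1315 higher (13.7%) and 1680 lower (17.5%) at 15 d. Set A alone gave 706 (7.33%) against the same 48 h arrays, 2.85% of features higher and 4.49% lower. Set B alone gave 3913 (40.6%), 17.8% higher and 22.8% lower. The counts of list members given below per set are to be read beside these shares. With the array set as a block, the count over all 6 arrays was 1371, and it was 923 without the set B arrays. No 48 h array was in set B, so the block takes out the shift of set B and leaves differences that lean towards set A. Enpp4, for instance, was at 0.56 with the block and at 0.67 without set B. For a call lost with the block, array set and time cannot be told apart. Of 106 called genes examined singly, not all of them named here, 51 kept the call with this block. Set A holds 2 arrays, and its count was 221 without replicate 1 and 91 without replicate 2. The median difference over all features was −0.05 on the log2 scale. Of the calls over all 6 arrays 43.9% were higher at 15 d, which was 53.2% after quantile normalisation and 34% after median scaling. For set A the share was 38.8%, and 48.5% and 24.8% under those scalings, and for set B it was 43.9%, and 54.1% and 37.4%. Each p-value sets a difference against the spread among arrays that the labels call biological replicates. These are whole glands, so fewer cells of a type and less RNA per cell cannot be told apart.

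Several genes rose in both sets, and those described here had no exact 0 on the 10 arrays. Zcchc8, a subunit of the complex that targets nuclear RNA for decay, was at 6.09, 6.67, 6.19 and 6.67 at 48 h, at 7.82 and 7.87 in set A and at 7.97, 7.79, 7.69 and 8.06 in set B. All 15 d arrays lay above all 48 h arrays, as for 762 features in all (7.92%). Zcchc8 rose 2.75-fold, by 1.46 ± 0.15 on the log2 scale (SE, adjusted p = 7.51e-08), with 1.44 in set A and 1.47 in set B. Gtf2a1, a subunit of the general transcription factor TFIIA, rose by 1.31 in set A and 1.57 in set B. Pigt, a subunit of the transamidase that attaches glycolipid anchors to proteins, rose by 1.40 and 1.52. Wrnip1, an ATPase that acts at stalled replication forks, rose by 1.19 and 1.55. Bdh1, a mitochondrial enzyme of ketone body metabolism, rose by 1.20 and 1.71, and Meis1, a homeobox transcription factor, by 1.12 in either set. Etfa, the subunit of the flavoprotein that passes electrons from fatty acid oxidation to the respiratory chain, lay at 7.43 to 8.13 at 48 h and at 8.63 to 9.42 at 15 d, a rise of 1.05 ± 0.15.

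The transgenic placebo glands changed over the same interval in most of these genes. Between 48 h and 15 d 4621 features (48%) differed with placebo, 21.8% higher and 26.2% lower at 15 d. Placebo counts of list members below are to be read beside these shares. Zcchc8 rose by 1.31 with placebo, Gtf2a1 by 1.40, Pigt by 1.64, Wrnip1 by 1.04 and Bdh1 by 1.20. Meis1 and Etfa rose by 0.60 each. In wild type placebo glands 175 features differed (1.82%), and the time difference of Zcchc8 there was 0.20 and did not pass (adjusted p = 0.709). The wild type arrays at 15 d scored −6.9 to 12.6 on the principal component, on the side of set A. The wild type and transgenic counts therefore differ in array set and number of arrays as well as in genotype. Transgenic placebo set A alone gave 599 features higher and 581 lower.

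Other genes fell in both sets. Clu, the secreted chaperone clusterin, was at 12.90, 12.68, 12.64 and 12.58 at 48 h, at 11.27 and 11.33 in set A and at 11.55, 11.70, 10.59 and 11.14 in set B. Every 15 d array was below every 48 h array, as for 1205 features (12.5%), and Clu fell 2.71-fold, by 1.44 ± 0.18 on the log2 scale (adjusted p = 5.83e-07). All 4 probe sets of Clu fell, by 1.42 to 1.44. C1galt1, the galactosyltransferase that builds the core of mucin-type O-glycans, fell by 1.19 in set A and by 1.43 in set B, although its other probe set gave a difference of −0.21. Tmprss13, a membrane serine protease, fell by 1.24 and 1.18. Inhbb, a subunit of activin and inhibin, fell by 1.0 and 1.31, and Igfbp2, a binding protein for insulin-like growth factors, by 1.0 and 1.27. Igbp1, a regulatory partner of protein phosphatase PP2A, fell by 1.15 and 1.72 by its brightest probe set, while another of its 4 probe sets had a difference of 1.10. Sspo, the gene of SCO-spondin, fell by 1.57 and 1.49.

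Placebo and wild type glands showed part of these falls. With placebo, C1galt1 fell by 0.66, Tmprss13 by 0.56, Inhbb by 0.70, Igfbp2 by 0.51, Igbp1 by 1.02 and Sspo by 1.44. In wild type glands C1galt1 fell by 0.92, Tmprss13 by 1.22, Inhbb by 0.75 and Igbp1 by 1.13, all past the threshold, and the differences of Igfbp2 (−0.46) and Sspo (0.09) did not pass.

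Saa2, an acute-phase serum amyloid gene, fell with a wide spread at 15 d. It stood at 10.09, 10.30, 9.86 and 9.44 at 48 h, at 7.63 and 8.55 in set A, and at 8.42, 8.03, 4.59 and 7.15 in set B, with 4.59 in replicate 6. All 15 d values were below all 48 h values. The fall was 2.53 ± 0.74 over all arrays (adjusted p = 0.0093), the difference in set A was −1.83 (adjusted p = 0.3), and placebo glands lay between 8.66 and 10.15 at both times. With the array set as a block it was −2.11 (adjusted p = 0.105). The test of the difference between treatments gave −2.62 and did not pass (adjusted p = 0.297).

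Across features, the 15 d minus 48 h difference with RAD001 and with placebo had a Pearson correlation of 0.674 over 9627 features and 0.819 over the 7923 features with no exact 0 on any array. Within set A the values were 0.482 and 0.643, and within set B 0.695 and 0.851. The 2 differences share no array, but features are not independent replicates and both differences contain the gap between the array sets.

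**Figure D2:**
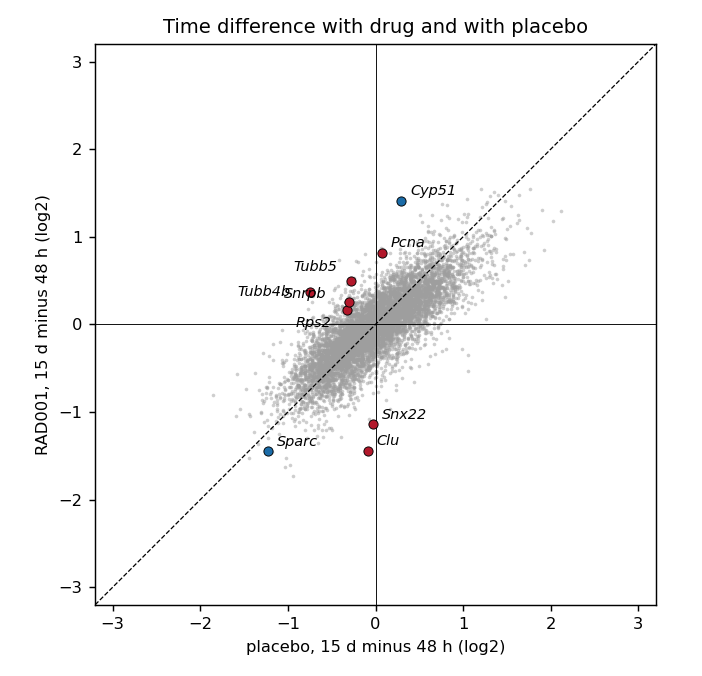
Difference between 15 d and 48 h (log2) with placebo on the x axis and with RAD001 on the y axis, 1 grey point for each of the 7923 features with no exact 0. Red points are genes whose time difference differed between treatments and blue points 2 further genes; the dashed line marks equal differences, and Clu and Snx22 lie well below it while Pcna, Tubb5 and Tubb4b lie above it.

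The difference in time was then compared between RAD001 and placebo in transgenic glands. By this time-by-treatment term 11 features differed (0.114%), 7 in the positive (0.0727%) and 4 in the negative direction (0.0415%), with 1133 at an unadjusted p under 0.05. Within set A 3 features passed (0.0312%) and within set B 36 (0.374%). The set A count was 8 without 15 d placebo replicate 1, 6 without replicate 4 and 5 without replicate 6 or 10 of that group or without 15 d RAD001 replicate 1 or 2. The set B count was 206 without 15 d placebo replicate 6, 84 without 48 h placebo replicate 1 and 55 without 48 h RAD001 replicate 2 or 15 d RAD001 replicate 7. Of the 11, 9 have a single gene symbol. The count was 3 without 48 h placebo replicate 4 and 30 without 48 h placebo replicate 1, the lowest and highest over the 22 single arrays. Clu and Tubb5 passed whichever of the 22 arrays was left out, and the other 7 genes lost the call without 5 to 17 of them.

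Clu gave the largest negative value among the genes with a symbol. Its time difference with placebo was −0.09 ± 0.16, with values of 12.43 to 12.70 at 48 h and 12.11 to 12.78 at 15 d, so that the 15 d RAD001 arrays were below all placebo arrays. The term was −1.35 ± 0.24 (adjusted p = 0.0104), with −1.33 in set A (adjusted p = 0.203) and −1.36 in set B (adjusted p = 0.01). In wild type placebo glands Clu stood at 12.22, 12.29, 12.76 and 12.79 at 48 h and at 11.11, 10.95 and 11.37 at 15 d. It fell there by 1.37 ± 0.21 (adjusted p = 0.000185), without drug or transgene.

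Snx22, a sorting nexin, followed the same order of groups. It was at 7.31, 7.06, 7.08 and 6.35 at 48 h with RAD001, at 5.75 and 6.08 in set A and at 5.82, 6.12, 5.32 and 5.76 in set B, with no overlap. It fell by 1.14 ± 0.17 with RAD001 (adjusted p = 9.09e-06), its difference with placebo was −0.03, and it fell by 0.92 ± 0.20 in wild type glands. The term was −1.11 ± 0.23 (adjusted p = 0.0354) and lost the call without 13 of 22 single arrays, with an adjusted p of 0.0756 without 48 h RAD001 replicate 1.

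**Figure D3:**
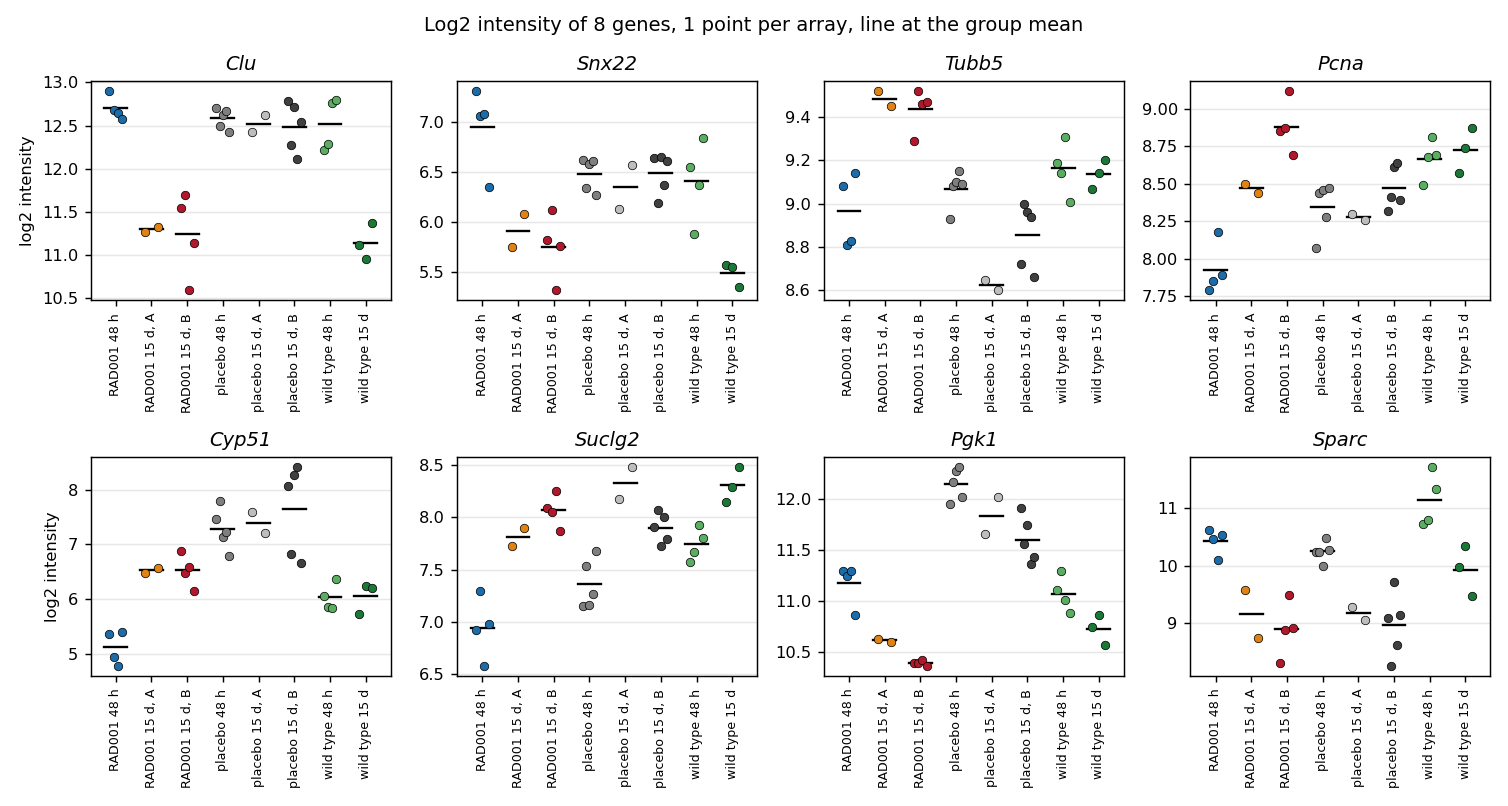
Log2 intensity (y axis) of 8 genes, 1 point per array and a line at the mean of each group (x axis), for RAD001, transgenic placebo and wild type placebo glands at 48 h and 15 d, with sets A and B of 15 d apart. Clu and Snx22 are low at 15 d with RAD001 and in wild type glands and not with placebo in transgenic glands.

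The 7 positive terms were those of Tubb5, Tubb4b, Pcna, Rps2, Snrpb, Ddit4 and Pygl. Tubb5, a beta-tubulin, was at 9.08, 8.81, 8.83 and 9.14 at 48 h with RAD001, at 9.52 and 9.45 in set A and at 9.29, 9.52, 9.46 and 9.47 in set B. It rose with RAD001 by 0.49 ± 0.09 (adjusted p = 0.000158), fell with placebo by 0.28 ± 0.08, and the term was 0.77 ± 0.13 (adjusted p = 0.0042), with 0.97 in set A and 0.69 in set B, both past the threshold. Its other probe set also rose with time, by 0.34, but gave a term of 0.16 that did not pass. Pcna, the sliding clamp of DNA replication, lay at 7.79 to 8.18 at 48 h, at 8.50 and 8.44 in set A and at 8.69 to 9.12 in set B. Pcna rose by 0.82 ± 0.12, with a placebo difference of 0.07 and a term of 0.75 ± 0.16 (adjusted p = 0.0354), which was lost without 13 of 22 arrays (0.0796 without 48 h RAD001 replicate 5).

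The remaining named terms combined a fall with placebo and a smaller opposite value with RAD001. Tubb4b, another beta-tubulin, had a difference of 0.37 with RAD001 (adjusted p = 0.0849) and fell by 0.75 with placebo, a term of 1.12 ± 0.22 (adjusted p = 0.0266), in 1 of its 4 probe sets. Rps2, a protein of the small ribosomal subunit, had 0.16 with RAD001 and fell by 0.33 with placebo, a term of 0.49 ± 0.10. Snrpb, a core protein of the spliceosome, rose by 0.26 with RAD001, a call lost with the array set as a block (0.24, adjusted p = 0.121), and fell by 0.30 with placebo, a term of 0.56 ± 0.12 (adjusted p = 0.0363). The terms of these genes lost the call without 5, 7 and 11 of the 22 single arrays, with the highest adjusted p at 0.0658 for Tubb4b and 0.0736 for Rps2 without 48 h RAD001 replicate 2, and 0.0847 for Snrpb without 15 d RAD001 replicate 6.

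Ddit4 and Pygl passed through placebo values listed at 0. Ddit4 encodes an inhibitor of mTOR complex 1 and lay at 8.35 to 8.66 in the 48 h and 8.05 to 8.63 in the 15 d RAD001 arrays. With placebo it was at 10.49 to 10.72 at 48 h and was listed at 0 on 5 of 7 arrays at 15 d, with 10.17 and 9.33 on the others. Pygl, the liver form of glycogen phosphorylase, was listed at 0 on all 5 placebo arrays of set B and lay at 6.38 to 7.37 on the RAD001 arrays. When the exact 0 values were treated as missing, neither passed and the other 7 genes kept their calls.

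The genes of cholesterol synthesis are targets of the transcription factor SREBP2, whose activity mTOR complex 1 promotes. Of the 18 measured members of that list, 3 rose between 48 h and 15 d with RAD001 and none fell, with a median difference of 0.12 against −0.05 over all features, of which 13.7% were called higher. The count of rises is near that of all features. Set A had 1 rise and set B 3, with no falls. With the exact 0 values treated as missing, 3 members were called higher and 4 lower. Cyp51, lanosterol demethylase, was at 5.36, 4.93, 4.77 and 5.39 at 48 h, at 6.48 and 6.57 in set A and at 6.88, 6.48, 6.58 and 6.14 in set B, with no overlap. It rose 2.66-fold, by 1.41 ± 0.31 (adjusted p = 0.000723), with 1.41 in either set. It was still below placebo at 15 d, by 1.05 ± 0.27, and by 2.17 ± 0.32 at 48 h, in contrasts of RAD001 with placebo that called 556 (5.78%) and 341 features (3.54%). The 48 h values of Cyp51 are near the floor, and with a floor of 64 the difference was 0.52 and did not pass. Tm7sf2, a sterol reductase, rose by 0.54 ± 0.15 and Ebp, a sterol isomerase, by 0.32 ± 0.09. Of the 3, Tm7sf2 lost the call with the array set as a block (adjusted p = 0.0637). With placebo 1 member rose and 5 fell, with a median of −0.47, and the time-by-treatment term had a median of 0.57 and no call among the 18. The term of Cyp51 was 1.12 ± 0.42 (adjusted p = 0.283).

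The promoters of the 3 genes called higher are shown to place the CCAAT box, which is bound by NF-Y and is common beside SREBP sites. Whether the box bears on their rise was not tested. The sequences run from 250 bases before to 50 bases after the start of each gene (RefSeq, GRCm38.p6, minus strand), with CCAAT or its reverse complement in capitals. They lie at chr5:4104648-4104947 for Cyp51, chrX:8193463-8193762 for Ebp and chr19:6067801-6068100 for Tm7sf2.
Cyp51: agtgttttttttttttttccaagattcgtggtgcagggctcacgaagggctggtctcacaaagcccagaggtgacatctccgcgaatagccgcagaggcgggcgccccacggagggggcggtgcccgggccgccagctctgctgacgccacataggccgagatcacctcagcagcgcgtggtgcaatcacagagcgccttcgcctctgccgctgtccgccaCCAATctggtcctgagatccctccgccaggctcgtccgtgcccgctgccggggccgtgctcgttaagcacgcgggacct
Ebp: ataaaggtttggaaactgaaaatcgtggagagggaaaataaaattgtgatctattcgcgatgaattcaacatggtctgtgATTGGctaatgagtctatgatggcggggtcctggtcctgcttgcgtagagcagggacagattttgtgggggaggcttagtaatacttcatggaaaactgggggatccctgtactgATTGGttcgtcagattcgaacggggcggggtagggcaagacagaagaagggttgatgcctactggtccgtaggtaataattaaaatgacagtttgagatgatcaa
Tm7sf2: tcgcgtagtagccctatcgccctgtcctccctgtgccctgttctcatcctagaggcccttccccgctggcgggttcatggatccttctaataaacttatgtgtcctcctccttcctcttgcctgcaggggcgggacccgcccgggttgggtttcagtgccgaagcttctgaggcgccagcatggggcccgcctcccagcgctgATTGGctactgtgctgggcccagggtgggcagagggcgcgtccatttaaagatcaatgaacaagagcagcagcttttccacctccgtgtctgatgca
The box begins 29 bases before the start in Cyp51, 170 and 55 bases before it in Ebp and 47 bases before it in Tm7sf2. Of the 18 measured genes 14 have a promoter in the RefSeq table, and CCAAT occurs on either strand in all 14, against 12289 of 32851 promoters (37.4%). The motif TCACNCCAC, a form of the sterol response element, occurs in 1 of the 14 (Hmgcs1) and in 408 promoters (1.24%). The list is counted per gene and the comparison per promoter, and the latter is not limited to genes measured here. A match describes these letters only.

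Glycolysis genes were lower at 15 d than at 48 h. Of 11 measured, 5 fell and none rose, against 17.5% of all features called lower, with a median of −0.34. Set A had 1 fall and set B 5. The summed intensity was 12708 to 14425 at 48 h, 10015 and 10374 in set A and 9437 to 11117 in set B, without overlap. Pgk1, phosphoglycerate kinase, was at 11.29, 11.25, 11.29 and 10.86 at 48 h, at 10.63 and 10.60 in set A and at 10.39, 10.39, 10.42 and 10.36 in set B. It fell by 0.71 ± 0.15 (adjusted p = 0.000434), by 0.78 in set B, with a difference of −0.56 in set A (adjusted p = 0.074), and all 3 of its probe sets fell. Aldoc, aldolase C, fell by 0.48 and Tpi1, triosephosphate isomerase, by 0.45. Both passed in set B, at −0.53 and −0.45, and not in set A, at −0.39 and −0.43. These 2 calls were lost without single arrays, with −0.46 for Aldoc without 48 h replicate 2 (adjusted p = 0.0528) and −0.40 for Tpi1 without 48 h replicate 1 (0.0685). The calls of Hk1 and Pfkm, also lower, were lost without 6 and 5 of 10 single arrays. Without 48 h replicate 2 Hk1 had −0.29 (adjusted p = 0.123) and Pfkm −0.13 (0.17). Placebo glands also had 5 falls, and there Pgk1 fell by 0.48. With the array set as a block 2 members fell, Pgk1 among them and Aldoc, Tpi1, Hk1 and Pfkm not. RAD001 glands were below placebo glands in Pgk1 by 0.98 at 48 h and by 1.21 at 15 d.

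Of 19 further hypoxia-inducible genes 6 fell and 2 rose, with a median of −0.16, beside 17.5% lower and 13.7% higher over all features. Set A had no call in either direction, set B had 5 falls and 3 rises, and with the array set as a block 2 fell and 1 rose. Bnip3, a mitochondrial receptor for autophagy, was at 9.43, 9.45, 9.46 and 9.25 at 48 h, at 8.89 and 8.48 in set A and at 8.53, 8.63, 8.40 and 8.35 in set B. It fell by 0.85 ± 0.18 (adjusted p = 0.000471), by 0.92 in set B with −0.71 in set A (adjusted p = 0.0613), and by 0.42 with placebo. Car9, a carbonic anhydrase, fell by 0.77 ± 0.23, with −0.62 in set A (adjusted p = 0.197), and Mxi1, an antagonist of MYC, rose by 0.34 ± 0.10, with a difference of −0.16 in its other probe set. Ndrg1 counts among the falls but was listed at 0 on 2 of the 15 d arrays (replicates 1 and 4).

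Citric acid cycle genes were higher at 15 d. Of 20 measured, 11 rose and 1 fell, against 13.7% of all features called higher, with a median of 0.29. In set A 6 rose and none fell, and in set B 11 rose and 1 fell. Suclg2, a subunit of succinate-CoA ligase, was at 6.92, 7.30, 6.58 and 6.98 at 48 h, at 7.72 and 7.90 in set A and at 8.09, 8.05, 8.25 and 7.87 in set B. It rose 2.05-fold, by 1.03 ± 0.15 (adjusted p = 4.37e-06), with 0.87 in set A and 1.12 in set B. Sdhd, a membrane subunit of succinate dehydrogenase, was at 6.99 to 7.31 at 48 h, at 7.75 and 7.88 in set A and at 8.18 to 8.28 in set B, a rise of 0.95 ± 0.15. Neither gene overlapped between times.

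Dlst, the transferase of the oxoglutarate dehydrogenase complex, rose by 0.86 and Sucla2, another succinate-CoA ligase subunit, by 0.69, both in each set. Idh3g, a subunit of isocitrate dehydrogenase, rose by 0.39, fumarase Fh1 by 0.50 and citrate synthase Cs by 0.31. Fh1 and Cs rose in set B, by 0.69 and 0.42, and had differences of 0.14 and 0.08 in set A. Idh3a rose by 0.55 by its brightest probe set, and its other probe set was called in the opposite direction, at −0.40. Ogdh, the first enzyme of the same complex as Dlst, was the member that fell, by 0.72 ± 0.27 (adjusted p = 0.0416). It lay at 9.09 to 9.44 at 48 h, at 8.98 and 9.21 in set A and at 8.19 to 8.47 in set B, and its difference was 0.03 with the array set as a block. Its call was lost without 7 of the 10 single arrays (0.102 without 48 h replicate 2). With that block 7 members rose and none fell, and Cs and Fh1 lost the call. With placebo 6 members rose and 1 fell, with a median of 0.09, and no member passed the time-by-treatment test. Suclg2 rose with placebo by 0.66 and Sdhd by 0.59.

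Among 16 genes of fatty acid oxidation 4 were called higher and none lower, beside 13.7% and 17.5% of all features. Besides Etfa these were Hadh, at 0.87 ± 0.20, and Hadhb, at 0.40 ± 0.10, both enzymes of the oxidation spiral. Hadh lost the call with the array set as a block (adjusted p = 0.0615). The remaining call, Acadvl, came from values listed at 0 on 48 h replicates 2 and 4. On the other 8 arrays Acadvl lay at 8.97 to 9.69, and with the exact 0 values treated as missing its difference was −0.42 (adjusted p = 0.0292), opposite in sign.

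**Figure D4:**
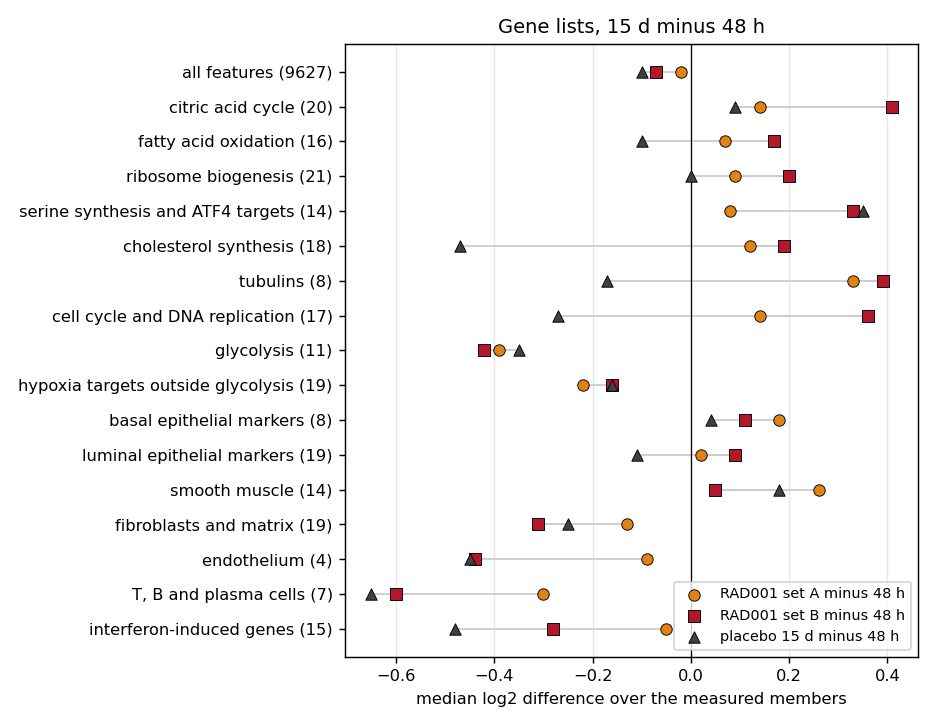
Median difference between 15 d and 48 h (log2, x axis) over the measured members of gene lists and over all features (y axis, number measured in brackets). Markers are RAD001 set A (circles), RAD001 set B (squares) and transgenic placebo over all 15 d arrays (triangles). Citric acid cycle and tubulin medians are above 0 in both RAD001 sets, and glycolysis medians are near −0.4 with RAD001 in either set and −0.35 with placebo.

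Of the 17 measured genes of the cell cycle and DNA replication 2 rose and 3 fell, near the 13.7% higher and 17.5% lower over all features. Besides Pcna, Ccnd1 (cyclin D1) rose by 0.59 ± 0.13, from 7.93 to 8.14 at 48 h to 8.50 on both arrays of set A and 8.39 to 9.06 in set B. The 3 probe sets of Ccnd1 had differences of 0.23 to 0.59, with 1 called. Aurka, a mitotic kinase, fell by 0.84 ± 0.19, and by 1.04 with placebo, and lost the call with the array set as a block (−0.39, adjusted p = 0.136). The list sum was 3426 to 4411 at 48 h and 3720 to 4323 at 15 d, so the groups overlapped.

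Of 8 tubulins 4 rose and 1 fell, beside 13.7% higher and 17.5% lower over all features. Tubb2a, a further beta-tubulin, was at 7.38, 6.00, 6.56 and 7.03 at 48 h, at 8.20 and 8.18 in set A and at 8.86, 9.04, 8.24 and 8.47 in set B, without overlap. The rise was 1.75 ± 0.67 (adjusted p = 0.044), and the call was lost without 7 of 10 single arrays (0.138 without 48 h replicate 2) and with the array set as a block (1.57, adjusted p = 0.201). Set A had 1 rise and 1 fall among the tubulins and set B 3 rises and 1 fall, and with that block 1 tubulin rose and 1 fell. Tubb4a moved the other way, from 9.12 to 9.63 at 48 h to 8.55 on both arrays of set A and 8.06 to 8.21 in set B. It fell by 1.09 ± 0.15 (adjusted p = 3.15e-06), and by 0.83 with placebo. The summed tubulin intensity was 4724 to 5848 at 48 h and 6392 to 7051 at 15 d.

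Ribosome biogenesis had 7 rises and 3 falls among 21 genes, with a median of 0.10, beside 13.7% higher and 17.5% lower over all features. Set A had 1 rise and set B 7 rises and 3 falls. Rrs1, an assembly factor of the large subunit, rose by 0.93 ± 0.15, in set A by 0.68 and in set B by 1.05. Ncl, nucleolin, rose by 0.71 and the nucleolar helicase Ddx21 by 0.49. The RNA polymerase subunits went in both directions: Polr1c rose by 0.98 and Polr1b fell by 0.75. With the array set as a block 3 genes of the list rose and 1 fell, and both subunits lost their calls. Of 14 genes of serine synthesis and ATF4 response 4 rose and 2 fell, beside the same shares of all features. Set A had 1 rise, set B 6 rises and 2 falls, and with the array set as a block 1 rose and 2 fell. Psat1, an enzyme of serine synthesis, was at 5.80, 5.78, 5.09 and 5.81 at 48 h, at 6.48 and 6.76 in set A and at 6.82, 6.47, 6.30 and 6.52 in set B, a rise of 0.94 ± 0.20 (adjusted p = 0.000721). Psat1 was below placebo by 1.21 at 48 h and by 0.88 at 15 d. The stress-induced genes Sesn2 and Trib3 fell by 0.97 and 0.41, the latter not with the block (adjusted p = 0.193). Slc7a5, a transporter of large neutral amino acids counted outside that list, rose by 1.41 ± 0.32, and by 1.48 with placebo.

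Genes of the AKT, PI3K and mTOR pathway showed 2 rises and 4 falls among 22 measured, with a median of −0.11, beside 13.7% higher and 17.5% lower over all features. Set A had no call in either direction, and set B 2 rises and 5 falls. Akt1 itself was at 9.49 to 10.02 at 48 h and at 9.38 to 9.89 at 15 d, a difference of −0.09 ± 0.13 that did not pass, with overlapping groups. Mtor had −0.12 ± 0.42 and Eif4ebp1, a translation repressor that mTOR phosphorylates, −0.12 ± 0.16. Rps6, the ribosomal protein phosphorylated downstream of mTOR, rose by 0.68 ± 0.18, by 0.93 in set B with 0.19 in set A, and Irs1, an adaptor of the insulin receptor, rose by 0.75 ± 0.21. Gsk3b, a kinase that AKT inhibits, fell by 0.86 ± 0.18, and Rictor, a subunit of mTOR complex 2, by 0.56 ± 0.12. Rps6, Irs1 and Gsk3b lost their calls with the array set as a block, with 0.25, 0.65 and −0.36. With placebo Rps6 rose by 0.99, Irs1 by 1.05 and Rictor fell by 0.27.

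The markers of other cell types gave few calls. Of the matrix and fibroblast markers, 19 in number, 3 fell and 1 rose, with a median of −0.28, and none was listed at 0 on the 10 arrays. Over all features 17.5% were called lower, so this count is near that of all features. Set A had 2 falls, and set B 6 falls and 1 rise. Their summed intensity was 11669 to 12959 at 48 h, 9312 and 11866 in set A and 9120 to 10079 in set B. Sparc, a matrix glycoprotein, was at 10.63, 10.46, 10.10 and 10.54 at 48 h, at 9.58 and 8.73 in set A and at 8.30, 8.88, 9.49 and 8.90 in set B. It fell by 1.45 ± 0.23 (adjusted p = 2.49e-05), and by 1.23 with placebo and 1.22 in wild type glands. Mfap5, a microfibril protein, fell by 1.01 ± 0.14, and by 0.84 and 0.73 in those groups, although its other probe set had a difference of 0.42. Col1a2, a chain of type I collagen, fell by 0.86 ± 0.22, with −0.04 in its other probe set, while Pdgfra, a fibroblast receptor, rose by 0.78 ± 0.18, with −0.16 in its other probe set. Col1a2 and Pdgfra lost their calls with the array set as a block, with −0.56 and 0.37.

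Of 4 endothelial markers 2 fell, beside 17.5% of all features called lower. Ramp2, a receptor accessory protein, was among them and fell by 0.51 in set A and 0.50 in set B. Kdr, an endothelial receptor, lost its call without 6 of 10 single arrays (adjusted p = 0.169 without 48 h replicate 4). With the array set as a block Kdr had −0.17 (adjusted p = 0.52), and 1 endothelial marker fell. Set A had 1 fall and set B 3. With placebo 3 fell, with a median of −0.45 against −0.32 with RAD001. The list sum was 659 to 829 at 48 h and 528 to 628 at 15 d. Of 7 markers of T, B and plasma cells 3 fell, beside the same share. The sum was 1329 to 1678 at 48 h, 1155 and 1292 in set A and 867 to 983 in set B. Ighm, the immunoglobulin mu chain, fell by 0.75 ± 0.13 and Cd8a by 0.54 ± 0.13. With placebo Ighm fell by 0.86 and Cd8a by 0.65. The call of Cd8a was lost with the array set as a block (−0.29, adjusted p = 0.143). The part of these cell types in the other differences was not tested.

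Of 12 macrophage markers 2 rose, near the 13.7% of all features called higher. Ctss (cathepsin S) led them and was at 7.30, 6.17, 6.17 and 6.35 at 48 h. At 15 d it was at 7.41 and 7.38 in set A and at 8.05, 9.22, 7.88 and 8.54 in set B. It rose by 1.58 ± 0.40, and by 1.46 with placebo, but with the array set as a block it was at 0.89 (adjusted p = 0.162). The list sum overlapped between 48 h (2358 to 3517) and 15 d (2357 to 3264). Of 14 smooth muscle genes none was called, with 10519 to 14882 at 48 h and 11357 to 14895 at 15 d. Among 15 interferon-induced genes 5 fell and 1 rose, beside 17.5% lower and 13.7% higher over all features. The falls included Mx2 by 0.82, Rsad2 by 0.62 and Stat2 by 0.56, with −0.14 in the other probe set of Stat2. Rsad2 lost the call with that block (adjusted p = 0.0776), and with placebo 8 fell and 3 rose.

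Over both array sets together epithelial markers went in both directions. Of 8 basal markers 3 rose and 2 fell, beside 13.7% higher and 17.5% lower over all features. Set A had 2 rises and no fall, and set B 3 rises and 2 falls. With the array set as a block 2 basal markers rose and none fell. Trp63, the basal transcription factor p63, was at 6.39, 6.53, 5.98 and 6.36 at 48 h, at 7.11 and 7.28 in set A and at 7.39, 7.06, 7.24 and 7.16 in set B. It rose by 0.89 ± 0.12 (adjusted p = 3.87e-06), in either set, and by 1.03 with placebo. Itga6, a laminin receptor, rose by 0.70 ± 0.15, while Krt5, a basal keratin, fell by 0.48 ± 0.15 and lost the call without 48 h replicate 1 (0.0614) or 2 (0.0726) and with the array set as a block (0.114). Dst, the other basal marker that fell, was at −0.02 with that block and at 0.13 without set B. The 3 probe sets of Dst had differences of −0.68 to 1.27, with 2 called. Of 19 luminal markers 1 rose, the membrane protein gene Prom1, by 1.08, and 2 fell, the transcription factor Elf3 by 0.62 and the cadherin Cdh1 by 0.41. All 3 lost the call with the array set as a block, and without 48 h replicate 1 Elf3 had −0.41 (adjusted p = 0.135) and Cdh1 −0.30 (0.125). Set A had 1 luminal rise and no fall, and set B 1 rise and 4 falls. With the block 1 luminal marker rose, none of those named, and no luminal marker fell. The keratin Krt8 had 0.25 (adjusted p = 0.213). Of 12 androgen-regulated genes 1 rose and 3 fell, beside 13.7% higher and 17.5% lower over all features. The immunoglobulin transporter Pigr fell by 0.59 ± 0.11. The peptidase Mme rose by 1.08 ± 0.25 and lost the call with the array set as a block (0.0682). The sums of the basal and luminal lists overlapped between the times.

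The gap between the sets at 15 d, set B minus set A within the RAD001 group, called 1064 features (11.1%), 467 higher (4.85%) and 597 lower (6.2%) in set B. The count was 203 without replicate 1 and 375 without replicate 2. Since the division was known from these values, the counts describe it and test nothing. Prr15, a proline-rich protein gene, was at 6.24 and 5.76 in set A and at 7.91, 8.06, 7.97 and 8.00 in set B, with 6.09 to 6.51 at 48 h. Rasd1, a Ras-related gene induced by dexamethasone, was at 6.54 and 6.89 in set A and at 8.29 to 8.88 in set B, with 5.76 to 7.14 at 48 h. Cygb, cytoglobin, was at 6.13 and 6.10 in set A and at 7.76 to 8.51 in set B, with 6.44 to 7.70 at 48 h. In all 3, set A was within or below the range at 48 h and set B was above it.

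Other genes were lower in set B. Klf3, a transcriptional repressor, was at 9.54 and 9.44 in set A, at 7.87 to 8.14 in set B and at 9.24 to 9.50 at 48 h. These are values of its brightest probe set. Its 3 probe sets had differences between 15 d and 48 h of −0.85 to 0.8, with 1 called. Mark2, a polarity kinase, was at 9.50 and 9.39 in set A, at 7.86 to 8.12 in set B and at 9.07 to 9.41 at 48 h. Enpp4, an ectonucleotidase, was at 8.35 and 8.48 in set A, above the 48 h range of 7.30 to 8.09, and at 6.51 to 7.02 in set B, below it. The sign of its difference from 48 h thus turned with the set, at 0.67 ± 0.19 for set A (adjusted p = 0.0237) and −1.03 ± 0.15 for set B (3.68e-06). The placebo sets differed in the same direction in these genes, for instance by −1.38 in Enpp4, −1.73 in Mark2 and 1.78 in Prr15. The placebo division was itself read from the values, so a shared direction is in part built in.

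**Figure D5:**
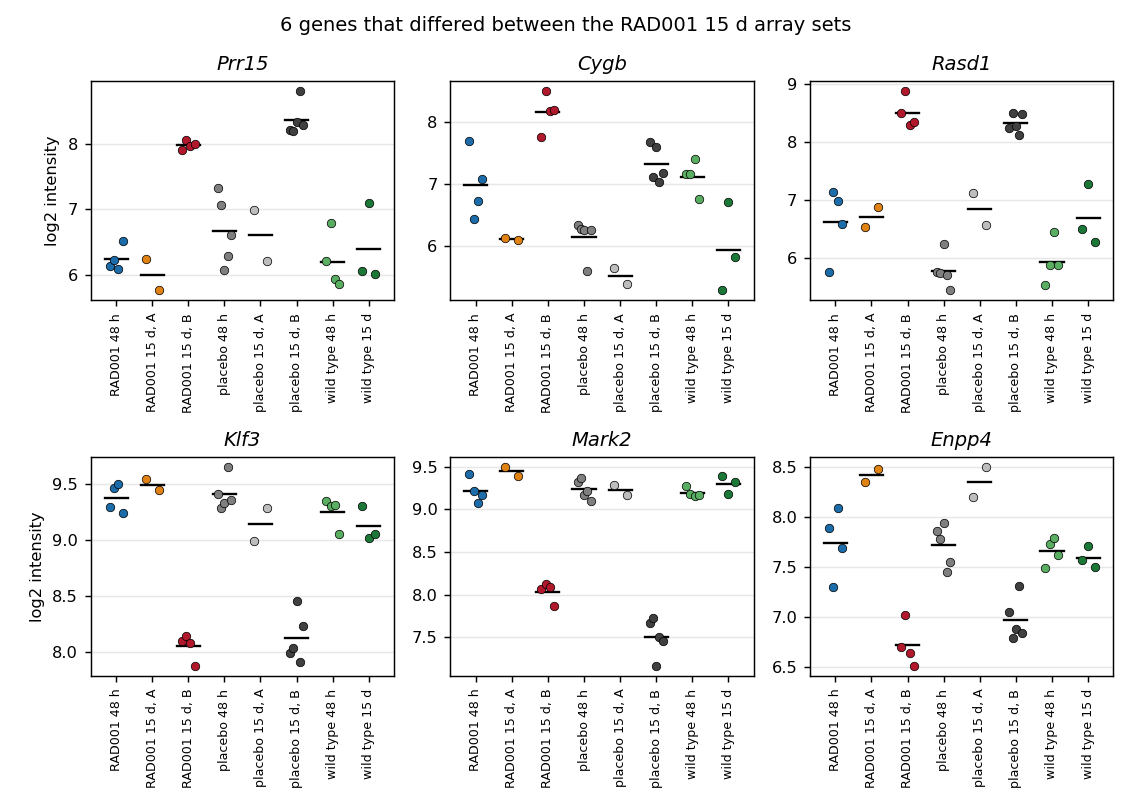
Log2 intensity (y axis) of 6 genes that differed between the 15 d array sets, 1 point per array and a line at each group mean (x axis). In Prr15, Cygb and Rasd1 set B is high and in Klf3, Mark2 and Enpp4 it is low, with RAD001 and with placebo, whereas the 48 h group means lie nearer to set A.

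Across all features the set gap with RAD001 and with placebo had a correlation of 0.579, and of 0.782 over the features with no exact 0. By the test of the difference between the gaps, 6 features passed (0.0623%). The placebo arrays were divided on the principal component on which the RAD001 sets stood apart. Likeness of the 2 gaps thus follows in part from that division, and these values describe it and test nothing. The exact 0 values bore on the largest differences. Of the 215 features called over all 6 arrays with a difference of at least 2-fold, 62 were listed at 0 on at least 1 of the 10 arrays. Of the 15 largest rises and 15 largest falls among called genes, 8 and 14 had such a value, and these genes are not described here by fold.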

How the data were processed

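The larger table holds 42 arrays with 22626 probe sets each, as deposited intensities on a linear scale with like medians on all arrays; the labels record no scaling step. Per the labels' protocols, total RNA was extracted with Trizol and 10 µg of biotin-labelled cRNA was hybridised to Affymetrix arrays. The smaller table, with the other arrays of the series, was not used here. Of the probe sets 20380 have 1 gene symbol, 691 several and 1555 none.

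The analysis used log2 of each value or of 16, whichever was larger; 2 probe sets with values above 65536 were left out. Probe sets above the 40th percentile of the mean were kept, with the brightest per gene, which left 9627 features. Models in limma (version 3.58.1, R 4.3.3) were fitted over all 42 arrays, once with a mean per group and once with the 15 d transgenic groups divided by array set, with Benjamini-Hochberg adjustment at 0.05. Precision is limited by how many arrays each group has. The model was tested on simulated data with independent normal noise. The simulation held neither a gap between array sets nor exact 0 values, so it cannot judge calls that rest on these. Alternatives were the filter, the floor, the scaling, array weights, blocks and leaving out arrays; those on the exact 0 values and on leaving out whole array sets were chosen after seeing the data. Same-numbered arrays of the 2 times had correlated deviations of −0.107, 0.142 and −0.034, so the numbers were not taken as pairs.

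The comparison, the gene lists and the division into array sets were chosen with earlier results of these data known. Named genes were the 15 largest called each way per comparison or in both sets, up to 4 members per list with the smallest p, and a fixed group of genes; other list members were named after their values were seen.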

Additional observations from a re-analysis of the deposited data

Results flagged for a closer look

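In 17 of 269 sets of values examined (6.32%) 1 array stood apart from the rest of its group by Dixon's criterion; chance flags about 1 in 20 groups. Among the 15 d RAD001 arrays these were Saa2 in replicate 6, at 4.59 with the nearest other array at 7.15, and Etfa in the same replicate, at 9.42 against 8.88. Tubb5 was low in replicate 3 (9.29 against 9.45), Dlst in replicate 1 (7.38 against 7.84) and Bdh1 in replicate 2 (6.77 against 7.48), while Krt5 was high in replicate 2 (8.48 against 7.97).

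Among the 48 h RAD001 arrays, replicate 5 was low in Pgk1 (10.86 against 11.25) and Bnip3 (9.25 against 9.43) and high in Snrpb (9.77 against 9.60). Replicate 4 was low in Psat1 (5.09 against 5.78), Gsk3b (7.63 against 7.92) and Hadhb (9.07 against 9.56) and high in Pygl (7.37 against 6.87). Replicate 1 was low in Aldoc (7.71 against 7.87) and high in Ctss (7.30 against 6.35), and replicate 2 was low in Tuba4a (10.89 against 11.30). In the 48 h placebo arrays Snrpb was low in replicate 5 (9.60 against 9.76).

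The difference between 15 d and 48 h differed between RAD001 and placebo, by the limma term for it, in 9 named genes. The terms were −1.35 for Clu and −1.11 for Snx22, and 0.77 for Tubb5, 1.12 for Tubb4b, 0.75 for Pcna, 0.49 for Rps2 and 0.56 for Snrpb. The terms of 4.79 for Ddit4 and 2.42 for Pygl rest on placebo values listed at 0.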

How the results depend on the processing

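The count of 2995 features between 15 d and 48 h was 1371 with the array set as a block, 1876 with that block and exact 0 values missing, 923 without set B, and 2296 to 3350 without single arrays. The 706 of set A became 1582 with array weights, 10 when only the arrays compared were fitted, and 91 to 709 without single arrays. The 3913 of set B ranged from 3380 to 3853 without single arrays. The 1064 between the sets became 2568 with array weights and 203 to 1129 without single arrays. The 11 time-by-treatment calls became 5 when only the arrays compared were fitted, 33 with the array set block, 58 with that block and exact 0 values missing, 6 without set B, 32 without set A, 4 without the arrays with most exact 0 values, and 3 to 30 without single arrays.

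Within set A the 3 time-by-treatment calls became 5 at the 60th percentile, with a floor of 64 or without the arrays with most exact 0 values, 7 after quantile normalisation or without placebo replicates 8 and 9, 34 with array weights, 11 with the arrays compared only, 1 with exact 0 values missing, and 3 to 8 without single arrays. Within set B the 36 became 62 after quantile normalisation, 64 with all probe sets, 3 with the arrays compared only, 21 without the arrays with most exact 0 values, and 26 to 206 without single arrays. The 4621 placebo calls became 1736 with the array set block, 2334 with exact 0 values missing as well, 1423 without set B, and 4066 to 5014 without single arrays.

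The replicate block left 0 calls between 15 d and 48 h, 8 for set A, 2 for time by treatment, 8 within set A and 3 for placebo; the numbers did not pair the arrays, and too few are shared to fit it for set B. Signs turned for Ogdh (0.03), Cygb (−0.79) and Enpp4 (0.56) with the array set block, with or without exact 0 values, for Mark2 (0.33) and Acadvl (−0.33) with block and missing 0 values, for Acadvl (−0.42) with missing 0 values alone, and for Dst (0.13), Klf3 (0.12), Enpp4 (0.67), Cygb (−0.87), Prr15 (−0.25) and Mark2 (0.23) without set B. Prr15 (−0.17) and Mark2 (0.33) also turned with the array set block alone. The cause was not tested. Signal limits dim genes: Cyp51 had 0.52 with a floor of 64. Of the 106 called genes examined singly, not all named here, 75 kept the call whichever single array was left out. After quantile normalisation 101 kept it, and without set B 38.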

Other observations

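Splicing factors had 6 higher and no lower calls among 23 measured between 48 h and 15 d with RAD001, against 13.7% and 17.5% of all features, with a median of 0.18, and 9 higher and 3 lower calls with placebo. Set A alone had 1 higher and no lower call, and set B alone 7 higher and 3 lower. Hnrnpd, an RNA-binding protein, was at 0.67 and Hnrnpu, a nuclear matrix protein, at 0.40. The 5 probe sets of Hnrnpu had differences of −0.31 to 0.67, with 2 called. Tra2a counts among the higher calls but was listed at 0 on 48 h replicate 4. Proteasome subunits had 6 higher and 3 lower calls among 25, beside the same shares of all features, with a median of −0.01.

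Heat shock proteins had 2 higher and 2 lower calls among 14 with RAD001 and a median of 0.04, beside 4 higher and 1 lower call and a median of 0.47 with placebo. Over all features 13.7% were higher and 17.5% lower with RAD001, and 21.8% and 26.2% with placebo. No heat shock member passed the time-by-treatment test.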
